A study of Mus musculus with 51 samples.

Results

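Retinoic acid is the hormone-like derivative of vitamin A, and 9 mouse genes for its handling and its receptors were followed here out of 18193 genes named on the array. They were chosen by measured values of these data, the levels in the 17 groups and the differences between groups, so their own levels and differences are given as descriptions with no test. The annotation gave 10 probe sets solely to one of them: 1 each to Crabp1, Crabp2, Rara, Rarb, Aldh1a2, Cyp26b1, Stra6 and Dhrs3, and a pair to Rarg. The brighter of that pair stands for the gene in the fits and is called the representative Rarg probe set.

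Cells take up retinol from its plasma carrier, in some tissues through the membrane receptor Stra6, and oxidise it to retinal and then to retinoic acid. Aldh1a2 catalyses the last step, Dhrs3 reduces retinal back to retinol, and Cyp26b1 oxidises retinoic acid for clearance. Crabp1 and Crabp2 are cytosolic binding proteins, of which Crabp2 is known to pass retinoic acid to nuclear receptors. Rara, Rarb and Rarg encode the receptors, which bind DNA with RXR partners, and Rarb, Cyp26b1 and Dhrs3 are themselves known to be induced by retinoic acid in many cells. In embryos the pathway patterns the body axis and limbs.

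RNA was measured on 51 Affymetrix arrays, 3 per group. Primary mouse embryonic fibroblasts (MEFs) of C57BL/6 background were labelled HMGN1, HMGN3 or HMGN5 knock out, each with a wild-type group of its own (HMGN1 WT, HMGN3 WT, HMGN5 WT). MEFs transformed by SV40 (ATCC CRL-2214) carried a retroviral construct for HMGN1, HMGN2, HMGN3a, HMGN5 or HMGN5SE, an HMGN1 construct named HMGN1_N2swap or HMGN1_N3swap, or the empty vector. MIN6, a cell line from a mouse insulinoma that keeps traits of beta cells, carried HMGN1, HMGN3a or the empty vector. HMGN proteins bind nucleosomes, and the series compares transcription with single variants lost or added. Per the labels, transduced cells were kept as puromycin-selected pools and held about double the HMGN protein, and one infection protocol is attached to all samples, the primary cells included. The labels explain neither the exchanged parts nor SE, and do not say which part of a gene was deleted.

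Levels are log2 of the deposited intensity, and the 3 cell types were normalized apart, so a level is compared only within a probe set and a cell type. A group mean was called dim below the 40th percentile of group means, which lay at 1.99 (primary MEFs), 3.63 (SV40 MEFs) and 5.13 (MIN6), and against a dim group a difference is also given as a bound. Within groups the median SD per gene ran from 0.066 to 0.126, and no arrays were identical. The labels do not say whether replicates were separate cultures, so p-values measure only the spread between these arrays, which may be technical. Of the 9 fibroblast markers, 9 passed the filter in primary MEFs, 8 after SV40 transformation and 1 in MIN6, where all 6 beta-cell markers named on the array passed. The Hmgn1 signal was lower in HMGN1 knock outs for 3 of 4 probe sets (-0.67 to -0.89), and Hmgn3 was lower in HMGN3 knock outs (-1.30 and -1.46). The Hmgn5 probe set had a mean of 5.69 in arrays labelled HMGN5 knock out and 4.97 in HMGN5 WT, opposite to the label, so directions for that pair rest on a label the array does not bear out. In the construct pools the probe sets of the added gene differed little from the vector or were lower, apart from Hmgn3 in MIN6. No Hmgn2 probe set was among those checked, so the HMGN2 pool was not checked in this way. Hmgn1 with HMGN1 differed from the vector by -0.08 to 0.02 in SV40 MEFs and by -0.05 to -0.01 in MIN6, over 4 probe sets. Hmgn3 with HMGN3a differed by -0.02 and -0.23 in SV40 MEFs and by 0.26 and 0.23 in MIN6. Hmgn5 differed by -0.93 with HMGN5 and by -0.05 with HMGN5SE, and Hmgn1 by 0.10 to 0.14 with HMGN1_N2swap and 0.11 to 0.17 with HMGN1_N3swap. The labels do not say which bases the constructs hold, and a probe outside them checks nothing, so the construct names are taken from the labels. Primary arrays differed in Xist, the RNA of the inactive X chromosome: 3.14, 8.61 and 7.40 in HMGN1 knock outs, against 8.56 to 8.63 in HMGN1 WT. Xist was 8.72, 2.60 and 7.69 in the arrays labelled HMGN5 knock out, against 2.40 to 2.78 in HMGN5 WT, and it lay between 2.40 and 2.73 in both HMGN3 groups.

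The proximal promoters of Rarb and Crabp1 are shown because these 2 genes had the largest differences between WT fibroblasts and between constructs. They are RefSeq windows of GRCm38.p6 from 250 bases before to 50 bases after the start of transcription, printed 5′ to 3′ on the gene's strand: Rarb at chr14:16575427-16575726, minus strand, and Crabp1 at chr9:54764498-54764797, plus strand. Capitals in Rarb mark a direct repeat of the hexamers that retinoic acid receptors bind, with 5 bases between them.
Rarb: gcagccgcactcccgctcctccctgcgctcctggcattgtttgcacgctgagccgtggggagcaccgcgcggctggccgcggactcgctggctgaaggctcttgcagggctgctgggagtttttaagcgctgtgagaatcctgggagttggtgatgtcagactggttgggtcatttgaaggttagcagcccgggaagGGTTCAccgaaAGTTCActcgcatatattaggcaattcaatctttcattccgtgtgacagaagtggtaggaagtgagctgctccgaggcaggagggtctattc
Crabp1: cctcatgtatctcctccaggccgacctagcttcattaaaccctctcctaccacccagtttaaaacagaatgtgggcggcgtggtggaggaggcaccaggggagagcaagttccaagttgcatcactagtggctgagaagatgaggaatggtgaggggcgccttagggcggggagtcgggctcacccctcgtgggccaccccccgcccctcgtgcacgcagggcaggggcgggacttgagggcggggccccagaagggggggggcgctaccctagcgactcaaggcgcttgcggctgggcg
The search took, on both strands, the hexamer AGGTCA and the variants written AGTTCA, also GGGTCA, also GGTTCA. In Rarb the repeat was GGTTCA at -53 to -48 and AGTTCA at -42 to -37, counted from the start of transcription, with a further GGGTCA at -83 to -78. A hexamer occurs in 43.7% of 32851 promoter windows of the same length, but a direct repeat with 5 bases between occurs in 0.0974% (32 windows). The Crabp1 window holds none of these letters. Of the 9 genes, 8 had windows, 17 in all, of which 5 held a hexamer and 1, that of Rarb, held a direct repeat spaced by 1, 2 or 5 bases. The Crabp1 window was 65% G and C and that of Rarb 57.7%, against a median of 52.7% over all windows.

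Crabp1 split the SV40 MEFs into 3 pools with a high signal and 5 pools with a dim or nearly dim one. The Crabp1 level was 9.36, 9.45 and 9.51 with HMGN1_N2swap, 9.95, 9.47 and 9.32 with HMGN1_N3swap and 8.03, 8.13 and 8.18 with HMGN2. With the empty vector it was 3.70, 3.92 and 3.65. Every array of the 3 high pools lay more than 4 log2 units above every array of the other 5. The differences from the empty vector were 5.68, 5.82 and 4.36 (SE 0.157 each), or 51.4, 56.7 and 20.5 times the vector intensity. Ranked by size among the 13469 genes of the fit, Crabp1 came 1st with either swap construct and 3rd with HMGN2. The 7 construct differences share the 3 vector arrays, so a shift of those arrays would enter each of them.

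HMGN1 itself, from which both swap constructs derive by name, did not have the high Crabp1 signal. The Crabp1 level was 3.69, 3.17 and 3.05 with HMGN1, 2.99, 3.49 and 3.03 with HMGN5, 3.44, 3.75 and 3.54 with HMGN5SE, and 3.75, 3.79 and 3.73 with HMGN3a. These 12 arrays overlap the vector arrays for HMGN1, HMGN5SE and HMGN3a, and lie below them for HMGN5. Since the HMGN1 and HMGN5 means of 3.30 and 3.17 are dim, the bound on the fall of Crabp1 was 0.13 on the log2 scale with each. That bound is smaller than the SE of the construct differences given above, so it sets no firm least fall. Between constructs, Crabp1 was higher by at least 4.48 with HMGN2 than with HMGN1, by at least 5.81 with HMGN1_N2swap than with HMGN1, and by at least 5.95 with HMGN1_N3swap than with HMGN1. HMGN1_N2swap exceeded HMGN2 by 1.33 (SE 0.0626), with no overlap of arrays. HMGN1_N3swap and HMGN1_N2swap differed by 0.14 (SE 0.197) and their arrays overlapped.

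**Figure D1:**
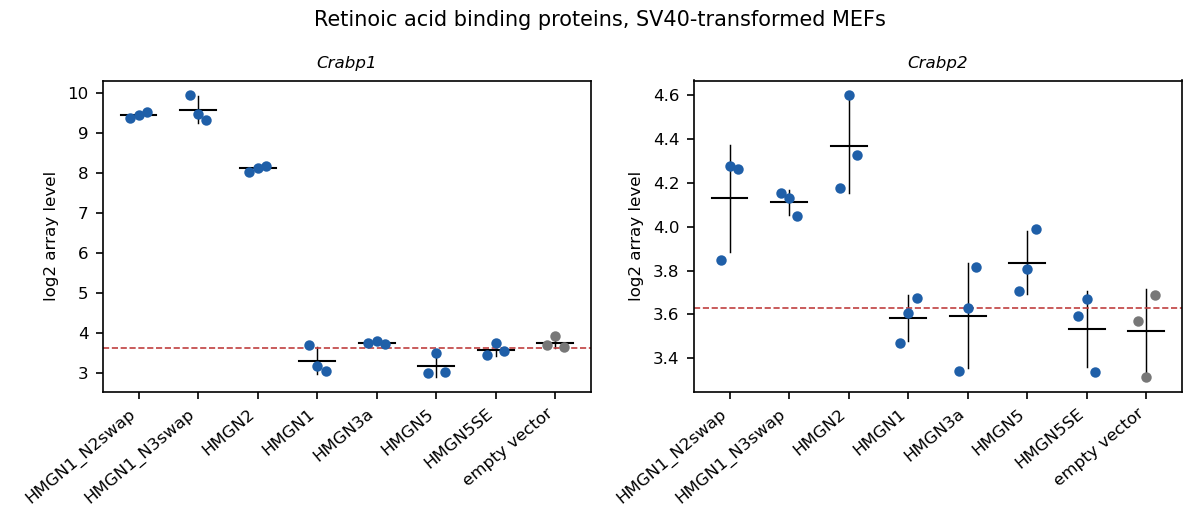
Log2 levels of Crabp1 and Crabp2 in the 8 groups of SV40 MEFs. Points are arrays (blue with a construct, grey with the empty vector), the horizontal bar is the mean, the vertical line the SD (n = 3) and the dashed red line the dim level of 3.63. HMGN1_N2swap, HMGN1_N3swap and HMGN2 stand apart for Crabp1, with means of 9.44, 9.58 and 8.11 against 3.76 with the vector.

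The RNA of the swap pools also had the highest values on a quality measure taken from Actb. The 3′ minus 5′ difference of the Actb control probe sets, which grows as labelled RNA gets shorter, was 0.394 to 0.789 with HMGN1_N2swap, 0.470 to 0.772 with HMGN1_N3swap and 0.00720 to 0.196 with HMGN2, against 0.233 to 0.290 with the vector. The highest HMGN5SE array had an Actb difference of 0.393. The same measure on Gapdh did not set the swap pools apart. It was 0.037 to 0.369 with HMGN1_N2swap and 0.098 to 0.354 with HMGN1_N3swap, on both sides of the vector's 0.153 to 0.163. With the Actb difference as a covariate, which was tried only once the data had been seen, the Crabp1 differences were 6.02, 6.13 and 4.21. The summed level of the fibroblast markers was 13.1 to 13.4 with HMGN1_N2swap, 13.2 to 13.3 with HMGN1_N3swap and 13.89 to 14.02 with HMGN2, against 12.92 to 12.97 with the vector, and 7 of the 9 were above the dim level in each of these groups. It was 14.05 to 14.10 with HMGN5, where Crabp1 was dim. The neural marker sum (5 of 5 passed, with Sox2 dim in these groups except HMGN5) was 8.01 to 8.27 with HMGN1_N2swap, 7.89 to 8.13 with HMGN1_N3swap and 8.003 to 8.142 with HMGN2, against 7.74 to 7.83 with the vector. It was 8.63 to 8.73 with HMGN5 and 7.30 to 7.42 with HMGN1, both without the high Crabp1. Of the 5 neural markers, 3 were above the dim level with the vector, so a further one besides Sox2 was dim there. With HMGN1, HMGN2 and both swap constructs 4 were above it, and with HMGN5 all 5. The part of these marker signals in the Crabp1 differences was not tested. In bulk RNA, fewer cells with a transcript and less transcript per cell cannot be told apart.

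Crabp2, the binding protein that delivers retinoic acid to receptors, was higher in the same 3 pools, by far less. The Crabp2 level was 3.85, 4.28 and 4.26 with HMGN1_N2swap, 4.16, 4.13 and 4.05 with HMGN1_N3swap and 4.18, 4.60 and 4.33 with HMGN2. With HMGN5 it was 3.71, 3.81 and 3.99, and with the vector 3.57, 3.31 and 3.69. All arrays of these 4 constructs lay above the vector arrays. The vector mean of 3.52 is dim, so the differences were at least 0.50, 0.48, 0.74 and 0.20. HMGN1, HMGN3a and HMGN5SE had dim Crabp2 means of 3.58, 3.60 and 3.53.

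The enzymes and the uptake receptor were near the dim level or under it in SV40 MEFs. Cyp26b1, the clearing enzyme, was 4.16, 4.15 and 4.18 with HMGN1_N3swap, against 3.73, 3.87 and 3.76 with the vector, a difference of 0.37 (SE 0.0962) with no overlap. With HMGN1_N2swap Cyp26b1 was 3.80, 3.98 and 4.09, higher by 0.17, and its arrays overlapped those of the vector. Stra6 means ran from 4.09 to 4.32 over the 8 groups, and each group overlapped its neighbour in that order. Aldh1a2, which makes retinoic acid (2.85 to 3.28), Dhrs3 (2.44 to 2.72) and the receptor gene Rarb (2.56 to 2.79) were dim in all 8 groups, so no statement about them is made in these cells.

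Among the receptors, Rarg was lower with both swap constructs. On the representative probe set the Rarg level was 7.93, 8.01 and 8.31 with HMGN1_N2swap and 8.29, 8.18 and 8.07 with HMGN1_N3swap, against 8.54, 8.55 and 8.62 with the vector. The differences were -0.48 and -0.39 (SE 0.0959 each), and no swap array reached a vector array. On the other probe set the level was 6.14, 6.35 and 7.04 with HMGN1_N2swap and 7.03, 6.33 and 6.64 with HMGN1_N3swap, against 7.43, 7.47 and 7.50 with the vector, which gave -0.96 and -0.80 (SE 0.181 each). With the Actb difference as a covariate that probe set gave -0.18 and -0.08, but the covariate itself differs between the swap and vector arrays, so the Actb difference and the constructs cannot be fully told apart. The representative probe set was not refitted with it, as its differences were under 0.5. Representative Rarg was 8.66, 8.94 and 8.69 with HMGN3a, 0.20 above the vector, and 8.52, 8.39 and 8.44 with HMGN1, 0.12 below it, in both cases without overlap.

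Rara, the most widely expressed of the receptors, was 6.61, 6.80 and 6.75 with HMGN2, against 6.33, 6.17 and 6.29 with the vector, a difference of 0.46 (SE 0.192) with no overlap. With HMGN3a it was 6.47, 6.58 and 6.59, higher by 0.28, also with no overlap. HMGN1_N2swap gave 5.36, 5.73 and 6.48 and HMGN1_N3swap 6.31, 5.82 and 5.75, both overlapping the vector. The wide spread with HMGN1_N2swap (SD 0.572) shows that its single arrays differ by more than the group difference of -0.41. The Actb difference of those arrays was 0.789, 0.739 and 0.394, so Rara and representative Rarg rose as it fell. With HMGN1_N3swap it was 0.470, 0.772 and 0.584, and only its lowest array matched, with the highest Rara and Rarg. The part of RNA quality in the Rara differences was not tested.

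**Figure D2:**
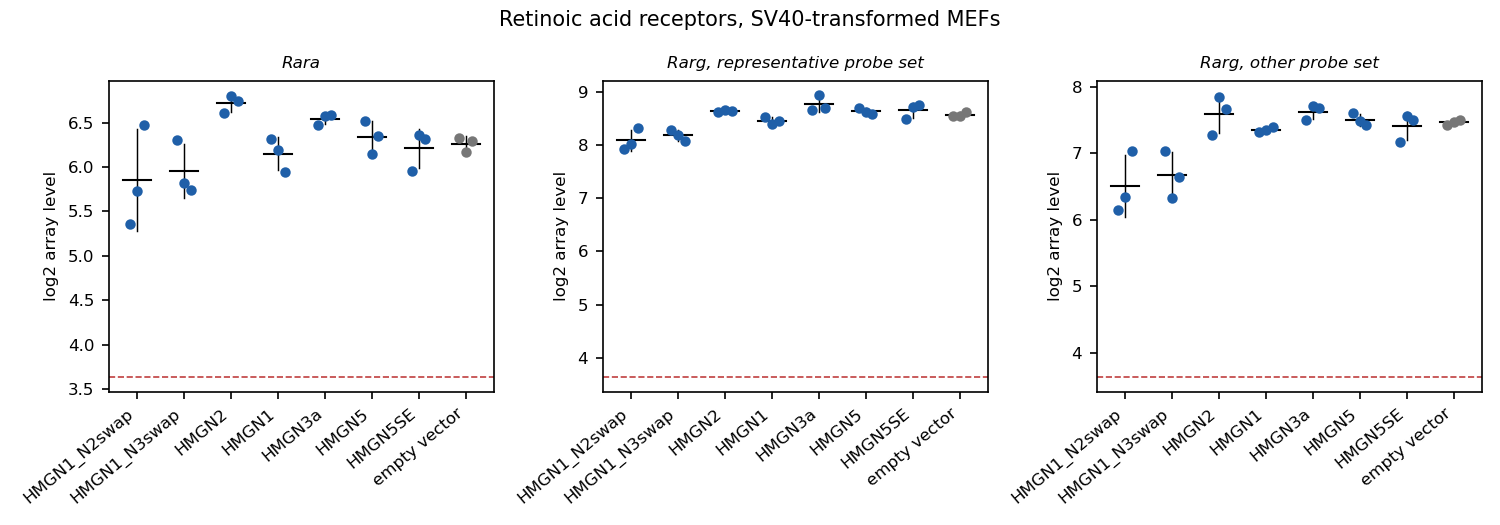
Log2 levels of Rara and both Rarg probe sets in the 8 groups of SV40 MEFs, drawn as for Crabp1. HMGN1_N2swap and HMGN1_N3swap lie lowest on both Rarg probe sets, with means of 8.08 and 8.18 on the representative one against 8.57 with the vector, and their arrays spread widely for Rara.

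Counted by the limma fit at an adjusted p below 0.05, which for these genes repeats the choice of members, 3 of the 6 genes that passed the filter were called with HMGN1_N2swap (37% of all tested genes), 4 with HMGN1_N3swap (37.3%) and 2 with HMGN2 (44.3%). With HMGN1 1 was called (29.4%) and with HMGN5 1 (41.5%), Crabp1 both times, and with HMGN3a (0.0297%) and HMGN5SE (0.0148%) 0. Arrays without overlap are common, so that trait alone sets no gene apart. It held for 3 of the 6 with HMGN1_N2swap (42.9% of all genes), 4 with HMGN1_N3swap (46%), 4 with HMGN2 (56.4%) and 1 with HMGN1 (49.4%). It held for 2 with HMGN5 (56.2%), 2 with HMGN3a (20%) and 0 with HMGN5SE (15.3%).

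The rest of the retinoid pathway was read from 62 genes that are not among the 9, of which 55 are named on the array and 37 to 40 passed the filter in a cell type. They form 4 lists: uptake, storage and binding; oxidation, reduction and clearance; receptor partners and coregulators; and genes known to respond to retinoic acid. In SV40 MEFs 39 were tested. With HMGN1_N2swap 6 were called higher and 11 lower (17.7% and 19.3% of all genes), a total of 17 that was 10 when only these groups were fitted. With HMGN1_N3swap they were 8 and 11 (17.4% and 20%). With HMGN2 the counts were 5 and 14 (18.7% and 25.6%), with HMGN1 11 and 2 (17.4% and 12.1%) and with HMGN5 8 and 10 (20.7% and 20.8%). With HMGN3a and HMGN5SE 0 were called by limma, and 6 and 3 had an unadjusted p below 0.05. The shares of all genes called are so large in 5 of the pools that these counts are not read as a trait of retinoid genes. The share of all genes at an unadjusted p below 0.05 is not given, so the 6 and 3 are not read that way either.

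Among the genes of retinoid oxidation and reduction, Retsat, which saturates retinol, fell with HMGN1_N2swap (mean 6.73 against 7.36 with the vector, -0.63, limma adjusted p = 2.64e-08), with HMGN1_N3swap (-0.66, limma adjusted p = 1.52e-08) and with HMGN2 (-0.54, limma adjusted p = 1.16e-07). Dhrs4, a retinal reductase, fell with HMGN1_N2swap (-0.58, limma adjusted p = 4.65e-05) and HMGN1_N3swap (-0.65, limma adjusted p = 1.31e-05) and rose with HMGN1 (0.56, limma adjusted p = 0.00011). Rdh10, which makes retinal from retinol, rose with HMGN2 (7.28 against 6.72 with the vector, 0.55, limma adjusted p = 3.7e-05), as did Rdh11, a further enzyme of the retinol dehydrogenase family (0.63, limma adjusted p = 1.27e-05). Rdh11 also rose with HMGN1 (0.52, limma adjusted p = 0.000253) and fell with both swap constructs (-0.47 each, limma adjusted p = 0.000411 with HMGN1_N2swap and 0.000438 with HMGN1_N3swap). Of 14 tested genes of this list, 3 rose and 5 fell with HMGN1_N2swap, 3 rose and 6 fell with HMGN1_N3swap, 2 rose and 5 fell with HMGN2, and 5 rose and 0 fell with HMGN1. The median difference of the list was 0.03 with HMGN1_N2swap, 0.04 with HMGN1_N3swap, -0.05 with HMGN2 and 0.02 with HMGN1, beside -0.008, 0.007, -0.06 and -0.002 for all genes. With HMGN5, 1 rose and 6 fell and the median was -0.16, beside -0.01: Adh7, an alcohol dehydrogenase that can oxidise retinol, fell most (6.60 against 7.51, -0.91, limma adjusted p = 1.58e-08), and Retsat fell by 0.47 (limma adjusted p = 6.13e-07).

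Of the 10 tested receptor partners and coregulators, 1 rose and 2 fell with HMGN1_N2swap, 2 and 2 with HMGN1_N3swap, 0 and 3 with HMGN2, 4 and 1 with HMGN1, and 2 and 1 with HMGN5. Ncoa1, a coactivator of nuclear receptors, fell with HMGN1_N2swap (5.93 against 6.71 with the vector, -0.78, limma adjusted p = 1.59e-05), HMGN1_N3swap (-0.86, limma adjusted p = 4.8e-06), HMGN2 (-0.49, limma adjusted p = 0.00157) and HMGN5 (-0.54, limma adjusted p = 0.000556). With the Actb covariate it was -1.15 with HMGN1_N2swap and -1.20 with HMGN1_N3swap.

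The 12 tested genes known to respond to retinoic acid did not move as a block. With HMGN2, 3 rose and 5 fell: Bhlhe40, a circadian repressor, rose most (8.38 against 6.37 with the vector, 2.01, limma adjusted p = 2.31e-11), followed by the transglutaminase Tgm2 (1.12, limma adjusted p = 3.5e-07). The homeobox genes Meis2 (-0.51, limma adjusted p = 0.000225) and Hoxa5 (-0.50, limma adjusted p = 5.61e-05) fell. With HMGN5, 5 rose and 2 fell. The homeobox gene Meis1 rose with HMGN5 (0.79, limma adjusted p = 7.47e-06) as with HMGN2 (0.49, limma adjusted p = 0.00173). Meis2 and Tgm2 went opposite to HMGN2: Meis2 rose (7.15 against 5.83 with the vector, 1.32, limma adjusted p = 1.95e-10) and Tgm2 fell (4.85 against 6.00, -1.15, limma adjusted p = 1.54e-07). Hoxb5 had 4.08 with HMGN5 and a dim 2.71 with the vector. With HMGN1_N2swap 2 rose and 4 fell, with HMGN1_N3swap 2 rose and 3 fell, and with HMGN1 2 rose and 1 fell. Bhlhe40 also rose with HMGN1 by 0.73 (limma adjusted p = 0.000125) and with HMGN5 by 0.54 (limma adjusted p = 0.00125). It was higher by 0.45 with HMGN1_N2swap (limma adjusted p = 0.00712, and 0.0748 with the Actb covariate) and by 0.53 with HMGN1_N3swap (limma adjusted p = 0.00192). The list's median difference was -0.04 with HMGN2, 0.10 with HMGN5, -0.17 with HMGN1_N2swap and 0.02 with HMGN1_N3swap, beside -0.06, -0.01, -0.008 and 0.007 for all genes.

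In primary MEFs, the largest differences of Rarb and Crabp2 lay between wild-type groups and not between a knock out and its own wild type. Rarb was 4.72, 4.92 and 4.63 in HMGN5 WT and 2.34, 2.50 and 2.17 in HMGN3 WT, a difference of 2.42 (SE 0.12), or 5.33 times, which was the 9th largest of 13674 genes. In HMGN1 WT it was 4.28, 4.35 and 4.21. HMGN3 WT lay 1.94 below HMGN1 WT and HMGN5 WT 0.47 above it, and the 3 groups did not overlap. Over all 6 primary groups, 4 of the 5 neighbours in the order of Rarb means did not overlap, the exception being the HMGN3 knock out and HMGN3 WT, which were lowest.

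Crabp2 followed the same order of wild-type groups with a wider spread. It was 5.73, 6.62 and 6.18 in HMGN5 WT, 4.40, 4.35 and 4.08 in HMGN3 WT and 6.48, 5.62 and 6.09 in HMGN1 WT. HMGN5 WT exceeded HMGN3 WT by 1.90 (SE 0.403; 3.73 times) and HMGN3 WT lay 1.79 below HMGN1 WT, with no overlap in either case. HMGN5 WT and HMGN1 WT overlapped and differed by 0.11.

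Crabp1 ran the other way. It was among the brightest genes of primary MEFs, at or above 94.8% of probe sets on average in every group, and was 9.74, 9.72 and 9.66 in HMGN3 WT, against 8.79, 9.63 and 9.39 in HMGN1 WT. In HMGN5 WT it was 9.05, 8.28 and 8.70, which is 1.03 below HMGN3 WT (SE 0.325) without overlap. Its difference of -0.60 from HMGN1 WT overlapped, and was -0.09 with the sex-linked RNA of Eif2s3y as a covariate. That covariate itself separates these groups without overlap, so it cannot be told apart from them.

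Of the genes known to be induced by retinoic acid, Dhrs3 was 4.87, 5.00 and 4.78 in HMGN5 WT, 4.28, 4.26 and 4.21 in HMGN3 WT and 4.69, 4.50 and 4.61 in HMGN1 WT. It was thus 0.63 higher in HMGN5 WT than in HMGN3 WT (SE 0.192), in the order of Rarb. Cyp26b1 did not follow that order: it was 4.11, 4.23 and 4.21 in HMGN5 WT, against 4.62, 4.44 and 4.50 in HMGN3 WT, a difference of -0.34. Representative Rarg was 6.20, 6.17 and 6.13 in HMGN5 WT, against 5.97, 5.90 and 5.75 in HMGN3 WT, higher by 0.29, and by 0.41 on the other probe set, without overlap on either. Rara (means 3.82 to 4.20), Aldh1a2 (2.89 to 3.32) and Stra6 (2.05 to 2.39) had overlapping neighbours throughout the 6 groups.

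By the limma fit 4 of the 9 genes were called between HMGN5 WT and HMGN3 WT (17.2% of all genes), 2 between HMGN3 WT and HMGN1 WT (31.5%) and 1 between HMGN5 WT and HMGN1 WT (11.7%), counts that the choice of members fixed. In that order, arrays did not overlap for 6, 4 and 3 of the 9, beside 36.5%, 46.2% and 34.4% of all genes. The 3 comparisons share their arrays in pairs. Where HMGN1 WT is compared, sex-linked RNA cannot be told apart from the group. Strain background beyond the label, litter and day of preparation cannot be told apart from the wild-type groups. Values that moved with them include the macrophage marker sum, from 7 genes of which 6 passed: 7.89 to 8.74 in HMGN5 WT, 9.002 to 9.112 in HMGN3 WT and 7.79 to 7.83 in HMGN1 WT. The neural marker sum (4 of 5 passed) was 7.67 to 7.70 in HMGN5 WT, 6.83 to 6.92 in HMGN3 WT and 8.07 to 8.16 in HMGN1 WT, so it was lowest in HMGN3 WT, as Rarb and Crabp2 were. In that list Sox2 was dim in all 3 groups, and Map2 in HMGN3 WT and HMGN1 WT. The epithelial marker sum (3 of 5 passed) was 5.32 to 5.33 in HMGN5 WT, 5.78 to 5.92 in HMGN3 WT and 5.22 to 5.31 in HMGN1 WT. Xist and Eif2s3y also moved, as given above. With the sex-linked RNA of Eif2s3y as a covariate, HMGN3 WT minus HMGN1 WT was -1.78 for Rarb and -3.00 for Crabp2. The covariate itself separates these groups without overlap, so these fits cannot set it apart from the groups. The part of these 3 marker signals in the differences was not tested.

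**Figure D3:**
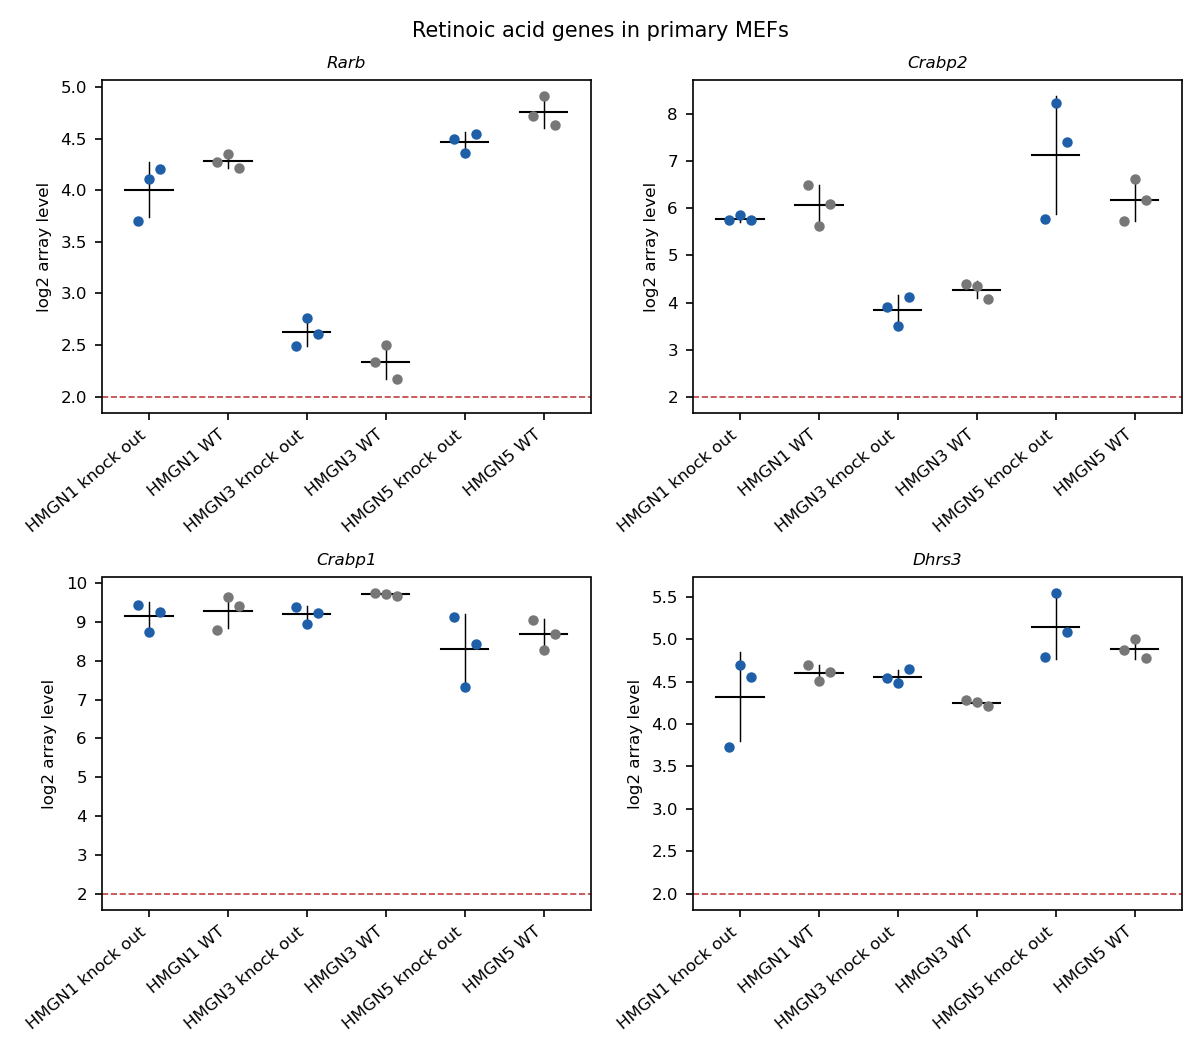
Log2 levels of members in the 6 groups of primary MEFs. Points are arrays (blue labelled knock out, grey WT), bars are means, vertical lines the SD (n = 3) and the dashed red line the dim level of 1.99. Rarb and Crabp2 are lowest in both HMGN3 groups, and Crabp2 scatters from 5.76 to 8.23 in the arrays labelled HMGN5 knock out.

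The other retinoid genes also differed between wild-type groups. Of 37 tested, 10 were higher and 4 lower in HMGN5 WT than in HMGN3 WT (9.9% and 7.32% of all genes). HMGN3 WT had 5 higher and 11 lower than HMGN1 WT (11.1% and 20.4%), and HMGN5 WT had 5 higher and 3 lower than HMGN1 WT (4.71% and 7.01%). That last total of 8 was 2 with the sex-linked covariate, and 5 without HMGN1 WT replicate 1, HMGN1 WT replicate 3 or HMGN5 WT replicate 3. The covariate cannot be told apart from these groups. Aldh1a3, a further enzyme that makes retinoic acid, had a mean of 8.81 in HMGN5 WT and 7.52 in HMGN3 WT (1.29, limma adjusted p = 1.82e-06). Adh1 and Adh7, alcohol dehydrogenases that can oxidise retinol, were lower in HMGN5 WT than in HMGN3 WT by -1.66 (limma adjusted p = 2.88e-07) and -1.01 (limma adjusted p = 2.33e-05). The Adh1 mean was 3.75 in HMGN3 WT and 2.09 in HMGN5 WT, the latter close to the dim level of 1.99. Hoxa5, a homeobox gene of the body axis, had 7.05 in HMGN5 WT and 4.70 in HMGN3 WT (2.35, limma adjusted p = 3.83e-07), and 6.01 in HMGN1 WT.

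Among the 12 tested response genes, 4 were higher and 1 lower in HMGN5 WT than in HMGN3 WT, with a list median of 0.23 beside 0.02 for all genes. The one lower gene was Gprc5a, a membrane receptor known as inducible by retinoic acid (4.31 against 5.00, -0.69, limma adjusted p = 5.07e-05). Meis2 was higher by 0.63 (limma adjusted p = 0.00141). Rarres1 was 3.10 in HMGN3 WT and dim, at 1.81, in HMGN1 WT (limma adjusted p = 0.000361, and 0.116 with the sex-linked covariate). Of the 10 receptor partners and coregulators, HMGN3 WT had 6 lower and 1 higher than HMGN1 WT, with a median of -0.27 beside -0.03. Nrip1, a nuclear receptor corepressor, was among them (6.08 against 6.48, -0.40, limma adjusted p = 0.000445).

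None of the 9 genes was called in a knock out against its wild type: 0 for HMGN1 (0.439% of all genes), 0 for HMGN3 (0.585%) and 0 for HMGN5 (0.0731%). Arrays did not overlap for 2, 2 and 1 of the 9, beside 21%, 15.9% and 11.1% of all genes. Of the 37 pathway genes limma also called 0 in each, with 4, 7 and 4 at an unadjusted p below 0.05. The share of all genes at that unadjusted level is not given, so the 4, 7 and 4 are not read as a trait of retinoid genes.

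Rarb was 3.70, 4.11 and 4.20 in HMGN1 knock outs, against 4.28, 4.35 and 4.21 in HMGN1 WT, a difference of -0.28 (SE 0.12) in which the arrays do not overlap. In arrays labelled HMGN5 knock out Rarb was 4.50, 4.36 and 4.55, against 4.72, 4.92 and 4.63 in HMGN5 WT, again -0.28 without overlap. In HMGN3 knock outs it was 2.50, 2.77 and 2.61, against 2.34, 2.50 and 2.17 in HMGN3 WT, higher by 0.29, with 1 pair of arrays at nearly the same level.

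Crabp1 was 9.38, 8.95 and 9.23 in HMGN3 knock outs, against 9.74, 9.72 and 9.66 in HMGN3 WT, a difference of -0.52 (SE 0.325) without overlap. In HMGN1 knock outs it was 9.44, 8.73 and 9.25, which overlaps HMGN1 WT. Dhrs3 was 4.54, 4.48 and 4.65 in HMGN3 knock outs, against 4.28, 4.26 and 4.21 in HMGN3 WT, higher by 0.31 without overlap. In HMGN1 knock outs Dhrs3 was 3.72, 4.69 and 4.55, of which 1 array lay low, and the difference was -0.28. Stra6 was 2.17, 2.12 and 1.87 in HMGN1 knock outs, against 2.26, 2.47 and 2.18 in HMGN1 WT, a difference of -0.25 at levels close to dim.

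The widest scatter within a group was that of Crabp2 in arrays labelled HMGN5 knock out, at 5.76, 8.23 and 7.40 (SD 1.25), against 5.73, 6.62 and 6.18 in HMGN5 WT. The difference was 0.96 (SE 0.403), 0.41 without the second array and 1.64 without the first. Crabp1 ran against it in the same arrays, at 9.11, 7.31 and 8.44, as did the macrophage marker sum at 9.52, 7.03 and 8.79. Xist, at 8.72, 2.60 and 7.69, ordered those arrays as Crabp1 did. By replicate number HMGN5 WT ran in the same order for Crabp2, for Crabp1 (9.05, 8.28 and 8.70) and for the macrophage sum (8.74, 7.89 and 8.30). Xist was low in all HMGN5 WT arrays (2.78, 2.76 and 2.40) and did not follow that order. With the sex-linked RNA of Eif2s3y, and not Xist, as a covariate the Crabp2 difference was 1.45. The part of the macrophage signal was not tested.

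In MIN6 cells the members that passed the filter were the receptors Rara, Rarb and Rarg and the enzymes Cyp26b1 and Dhrs3. Crabp1 (means 3.49 to 3.77), Crabp2 (4.53 to 4.68), Stra6 (4.89 to 4.94) and Aldh1a2 (4.33 to 4.48) were dim in all 3 groups, so the binding protein that split the SV40 pools was not measurable here.

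Rarb was lower with HMGN3a in MIN6 cells, and by less with HMGN1, where limma did not call it. It was 4.76, 4.89 and 4.78 with HMGN3a and 5.41, 5.56 and 5.39 with HMGN1, against 5.93, 5.75 and 5.61 with the empty vector, and the 3 groups did not overlap. The HMGN3a mean of 4.81 is dim, so Rarb was lower by at least 0.63 on the log2 scale with HMGN3a (fitted difference -0.95), and the HMGN1 difference was -0.31 (SE 0.0884 each). Dhrs3 was 6.21, 5.99 and 6.23 with HMGN1, against 5.57, 5.78 and 5.73 with the vector, higher by 0.45 (SE 0.0827) and 137th by size of 13179 genes. With HMGN3a Dhrs3 was 5.68, 5.76 and 5.70, among the vector arrays.

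Cyp26b1 was 6.01, 5.67 and 5.74 with HMGN3a, against 5.45, 5.64 and 5.58 with the vector, higher by 0.25 without overlap. With HMGN1 it was 5.67, 5.83 and 5.51 and overlapped. Rara was 5.94, 5.97 and 5.81 with HMGN1, against 6.15, 6.09 and 5.99 with the vector, a difference of -0.17 without overlap. Representative Rarg was 8.01, 7.92 and 7.90 with HMGN1, against 7.60, 7.89 and 7.75, higher by 0.20. On the other probe set the HMGN1 arrays overlapped the vector, so the Rarg probe sets did not give the same picture. The limma fit called 1 of 5 with HMGN3a (34.1% of all genes), Rarb, and 1 of 5 with HMGN1 (1.15%), Dhrs3. Arrays did not overlap for 2 of 5 with HMGN3a (44.8% of all genes) and 4 of 5 with HMGN1 (24.7%). The summed level of the epithelial markers, 4 of 5 of which passed, was 12.55 to 12.67 with HMGN3a, against 12.06 to 12.12 with the vector, and its part in the HMGN3a differences was not tested.

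**Figure D4:**
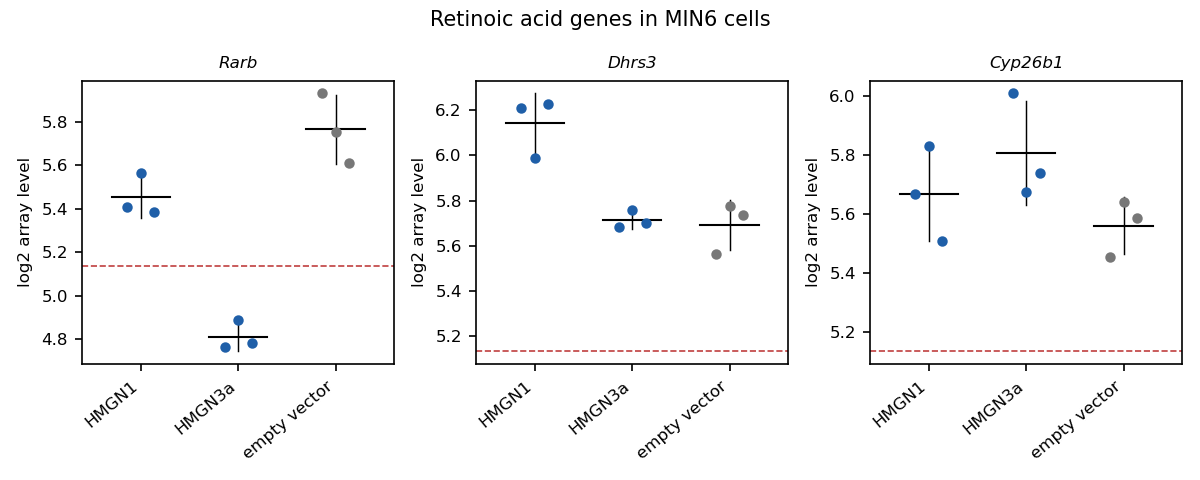
Log2 levels of members in the 3 groups of MIN6 cells. Points are arrays (blue with a construct, grey with the empty vector), bars are means, vertical lines the SD (n = 3) and the dashed red line the dim level of 5.13. Rarb has means of 4.81 with HMGN3a and 5.45 with HMGN1 against 5.77 with the vector, and Dhrs3 is highest with HMGN1 (6.14).

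Of 40 pathway genes tested in MIN6 cells, 6 were higher and 6 lower with HMGN3a (14.5% and 19.5% of all genes), and 1 higher and 1 lower with HMGN1 (0.493% and 0.653%). Rbp4, the plasma carrier of retinol, went in opposite directions: it had 6.39 with HMGN3a (-1.10, limma adjusted p = 1.97e-05) and 8.30 with HMGN1 (0.81, limma adjusted p = 0.00478), against 7.49 with the vector. Tgm2 fell with HMGN3a (5.35 against 6.33, -0.98, limma adjusted p = 2.25e-05) and with HMGN1 (-0.50, limma adjusted p = 0.0323). The HMGN1 call of Tgm2 was lost with each probe set tested on its own (limma adjusted p = 0.0538) and with single arrays left out (up to 0.114). The total with HMGN1 was 1 without vector replicate 3 or any one HMGN1 array. Of the 5 tested uptake and binding genes, 1 rose and 3 fell with HMGN3a, with a median of -0.32 beside 0.007 for all genes.

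**Figure D5:**
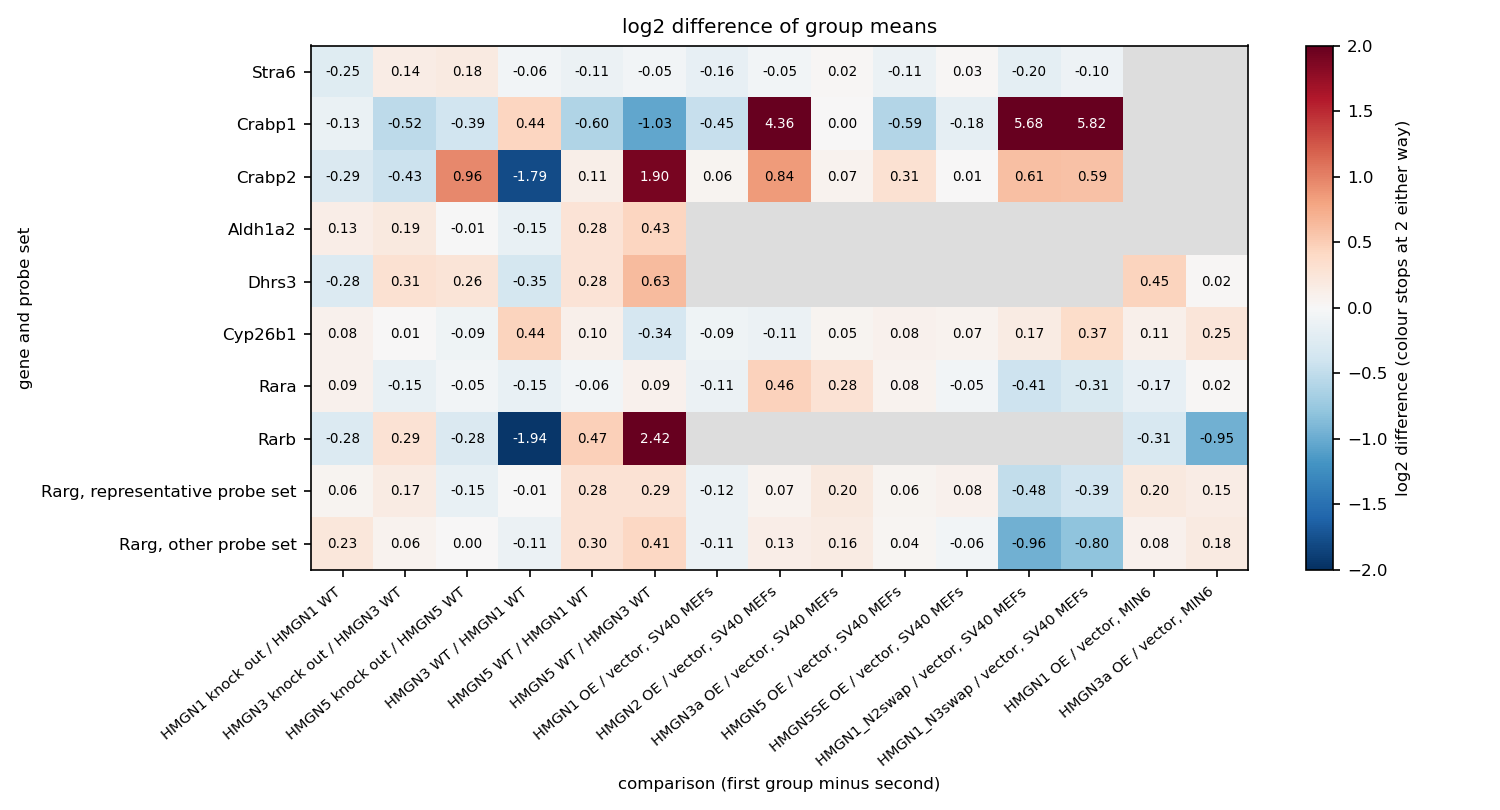
Log2 difference of each member probe set (rows) in the 15 comparisons (columns), each a knock out, construct or wild-type group minus the group it is set against. Colours stop at 2, and grey marks probe sets that did not pass the filter. Crabp1 with HMGN2 and both swap constructs, and Rarb and Crabp2 between wild-type groups, carry the strongest colours.

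The genes most like each member were taken by Pearson's r over group means, among genes whose means span at least 1 log2 unit, as a description in which the points share controls and fits. In SV40 MEFs (8 means, 1662 genes) Crabp1 was most like Xist (0.991), Ankrd49 (0.981) and Gm30873 (0.979). Xist was 6.88 to 7.78 with HMGN1_N2swap, 6.89 to 7.19 with HMGN1_N3swap and 6.16 to 6.55 with HMGN2, against 4.70 to 4.91 with the vector and 4.13 to 4.35 with HMGN1. In primary MEFs (6 means, 679 genes) Crabp1 was most like Sema3c (0.982), Fhod3 (0.960) and Sema5a (0.955). Crabp2 was most like Ogn (0.989), Alcam (0.986) and Ebf3 (0.985), and Rarb was most like Foxc2 (0.996), Piezo2 (0.991) and Cpne8 (0.986).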

How the data were processed

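RNA from 51 samples was hybridised to Affymetrix mouse arrays. The values that the authors deposited are linear probe set intensities, and RMA is the method named in the submitters' processing notes (its version is not given in the sources used here). They were used as log2 values without normalizing again, and all 51 value columns entered. The annotation names 1 gene for 34945 of 45101 probe sets, several for 932 and none for 9160, and 64 are controls.

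A probe set passed when at least one group mean of the cell type reached the 40th percentile of group means, and a gene was represented by its brightest such probe set. That left 13674 genes for primary MEFs, 13469 for SV40 MEFs and 13179 for MIN6. One limma model per cell type (version 3.58.1, lmFit and eBayes, run in R 4.3.3, tables read through data.table at release 1.17.8) held a mean for each group. P-values are two-sided, adjusted by Benjamini-Hochberg over all genes of the model, and called below 0.05. An SE against an empty vector or WT group comes from this model, and one between constructs from the arrays of those groups alone. Figures used matplotlib 3.10.9, with pandas 2.3.3 and Python 3.11.15.

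The members and lists were chosen with earlier results of these data known. The pathway genes named are, for each comparison and list, among the up to 3 largest called rises and 3 largest falls whose arrays do not overlap. Those with a difference of at least 0.4 and among the largest pair each way were recomputed under the alternatives, a limit set with the values known. Replicate numbers were not taken to pair arrays in any of 15 comparisons. In each, at least one correlation of same-numbered deviations was at or below 0.1. For the HMGN5 knock out and HMGN5 WT the correlations were 0.203, 0.208 and 0.032, and Crabp1, Crabp2 and the macrophage sum ran alike by number there. The procedure was tested on simulated data. The alternatives were testing without the filter, counting each probe set, quantile normalization, a sex-linked RNA covariate, a replicate block, fitting compared groups alone, leaving out arrays and, added with the data in view, the Actb 3′ minus 5′ covariate. The 3 arrays per group limit the precision.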

Additional observations from a re-analysis of the deposited data

Results flagged for a closer look

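The constructs HMGN1 and HMGN3a were used in both SV40 MEFs and MIN6 cells. For 10 differences from the empty vector, the 3 arrays of one cell type all moved one way and those of the other all moved the opposite way. Arrays without overlap were common over all genes: 49.4% in SV40 MEFs and 24.7% in MIN6 with HMGN1, and 20% and 44.8% with HMGN3a. The share of all genes with such opposite moves is not given, so the count is not read as a trait of retinoid genes. The gap is given as SV40 MEFs minus MIN6 cells, and it was not tested. Tgm2, a transglutaminase inducible by retinoic acid, had the widest gaps: 1.24 with HMGN1 (0.56 in SV40 MEFs and -0.68 in MIN6) and 1.10 with HMGN3a (0.45 and -0.65). These come from the Tgm2 probe set that stands for the gene in SV40 MEFs, while another stands for it in MIN6. The receptor gene Rarg, on its representative probe set, had a gap of -0.32 with HMGN1 (-0.12 and 0.20), though its other probe set overlapped the vector in MIN6.

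With HMGN1, the gaps among receptor partners and coregulators were 0.28 for Rxrb, 0.30 for Ncoa3, 0.43 for Crebbp and -0.39 for Nrip1. Hoxa5 had a gap of -0.35. With HMGN3a, the retinol carrier partner Ttr had a gap of 0.75 (0.15 in SV40 MEFs and -0.60 in MIN6), and the homeobox gene Meis2 had -0.49 (-0.09 and 0.40). The Ttr gap, too, comes from the probe set that stands for the gene in SV40 MEFs. Another stands for Ttr in MIN6, and its difference with HMGN3a there was -0.32.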

How the results depend on the processing

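Of 227 recomputed values of the 19 member differences of at least 0.5, 0 changed sign and 8 moved by more than the spread between arrays. With the sex-linked covariate, HMGN3 WT minus HMGN1 WT was -3.00 for Crabp2 and -1.78 for Rarb, and HMGN5 WT minus HMGN1 WT was -0.09 for Crabp1. That covariate separates HMGN1 WT from the other wild-type groups, so it cannot be told apart from them. With the Actb covariate, Crabp1 was 6.02 with HMGN1_N2swap, 6.13 with HMGN1_N3swap and 4.21 with HMGN2, and the other Rarg probe set was -0.18 with HMGN1_N2swap and -0.08 with HMGN1_N3swap. The cause was not tested.

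The count of called pathway genes between HMGN5 WT and HMGN1 WT was 2 with the sex-linked covariate, against 8 without it, and 5 to 7 when an array was left out, with 5 without HMGN1 WT replicate 1, HMGN1 WT replicate 3 or HMGN5 WT replicate 3. For HMGN1_N2swap it was 10 when only the compared groups were fitted, against 17, and fewer arrays then estimate the spread. For HMGN1 in MIN6 it was 1 to 2 when an array was left out, with 1 without vector replicate 3 or any HMGN1 array. The other counts stayed within 1.5 times under every alternative run. Of 345 recomputed values of 50 named pathway differences, 334 kept their call. Those that lost it were Rarres1, Gprc5a and Aldh1a3 between WT groups, Hoxa4 and Bhlhe40 with HMGN1_N2swap, and Tgm2 with HMGN1 in MIN6.

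A replicate block moved no count by over 1.5 times: 17 between HMGN3 WT and HMGN1 WT, 7 between HMGN5 WT and HMGN1 WT, 14 between HMGN5 WT and HMGN3 WT, 0 in each knock out, 19 with HMGN2, 17 with HMGN1_N2swap, 18 with HMGN1_N3swap and, in MIN6, 10 with HMGN3a. The correlations of same-numbered deviations ran from -0.339 to 0.377 over 15 comparisons, and in 1 comparison every array correlated best with its own number. Signals near the dim level (Crabp1 in 5 SV40 groups, Stra6, Aldh1a2) limit what their differences can show.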
